A study of Mus musculus with 7 samples.

Results

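The regulatory T cells of the small intestinal epithelium were taken as the cells of the young and old IEL pools that held 1 or more UMI of Foxp3 and 0 UMIs of Trdc and Cd8b1. A UMI (unique molecular identifier) marks 1 captured RNA molecule. Foxp3 encodes the transcription factor that defines regulatory T cells, Trdc the constant part of the delta chain of γδ T cells, and Cd8b1 the CD8β chain of conventional CD8+ T cells. The members were selected on these raw counts, so their Foxp3 level is a description and not a finding. The gate took 127 of 10159 IEL cells, 76 from young IEL and 51 from old IEL, out of 21365 cells in all. The same gate took 260 cells of young SP and 231 cells of old SP, 491 together.

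IEL are the intraepithelial lymphocytes of the small intestine and SP is the spleen, both from male C57BL/6 mice of 6 weeks (young) or 80 weeks (old). Each group was 1 pool of cells from several mice, enriched for CD45+ leukocytes, marked with its own hashtag antibody and sorted as T cells. For IEL the sort combined CD3+ cells with the same number of CD3+CD4+ cells, so that the share of CD4+ cells in these pools depends on the mixing. The libraries held 4348 cells and 32248487 UMIs for young IEL, 5811 and 33314700 for old IEL, 5668 and 35009348 for young SP, and 5538 and 39915809 for old SP, and 0 barcodes were listed in more than 1 library. With 1 pool per group no difference was tested. The 95% intervals given below hold counting error alone and are exact, binomial for shares of cells and Poisson for levels.

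Regulatory T cells restrain other T cells. They carry CTLA-4, which strips costimulatory ligands from antigen-presenting cells, and the high-affinity interleukin-2 receptor chain CD25 (Il2ra), and they secrete the inhibitory cytokine interleukin-10. Those that settle in the intestine are known for a tissue program of activation receptors, homing receptors and repair factors such as amphiregulin (Areg). The epithelial layer itself is dominated by CD8αα+ and cytotoxic lymphocytes, and CD4+ T cells that enter it can lose Foxp3 and gain CD8αα.

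Foxp3 lies on the plus strand of chromosome X (chrX:7573644-7595245, GRCm38). Ctla4 lies at chr1:60887000-60915832 and Il2ra at chr2:11642807-11693193 of the same build, both on the plus strand.

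The sequences that carry the clonal finding are TCRβ junctions shared by 3 or more gated cells of old IEL, of which 2 are shown because they differ in kind. Each is the CDR3 of the deposited TRB contig, read 5′ to 3′. Capitals mark the bases that matched neither the start of the germline V segment nor the end of the J segment, which include any D segment.
Clonotype 1, TRBV12-2+TRBV13-2 with TRBJ2-1: tgtgccagcggCAatgctgagcagttcttc
Clonotype 2, TRBV13-1 with TRBJ2-3: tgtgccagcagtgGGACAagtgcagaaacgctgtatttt
The 5 cells of clonotype 1 all held 2 or more Foxp3 UMIs, whereas clonotype 2 entered the gate mostly through cells with 1 Foxp3 UMI, and their other values are given with the receptors below.

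Foxp3 cells were rarer in IEL than in SP, and rarer in old than in young IEL. They made up 1.75% of young IEL (1.38 to 2.18), 0.878% of old IEL (0.654 to 1.15), 4.59% of young SP (4.06 to 5.16) and 4.17% of old SP (3.66 to 4.73). The intervals of the IEL libraries did not overlap each other or those of SP, while those of young and old SP overlapped. Among cells with a Cd4 or Foxp3 UMI and no Trdc or Cd8b1 UMI, Foxp3 cells were 5.83% of 1304 cells in young IEL (4.62 to 7.24), 2.14% of 2387 in old IEL (1.59 to 2.80), 13.2% of 1967 in young SP (11.8 to 14.8) and 17.9% of 1294 in old SP (15.8 to 20.05). By this denominator the old share was the lower one in IEL and the higher one in SP. With each cell thinned to 2000 UMIs before gating, these shares were 6.23% (4.60 to 8.23) in young and 2.58% (1.83 to 3.52) in old IEL, with intervals apart, and 15.5% in young and 18.9% in old SP, where the intervals overlapped.

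The lower share in old IEL moved with 2 other quantities. The median UMI number per cell was 6531 in young and 5324 in old IEL, against 5689 in young and 6533.5 in old SP, and after the same thinning the share of the library was 1.06% of young IEL (0.776 to 1.41) and 0.669% of old IEL (0.474 to 0.917), with overlapping intervals. The Cd4 cells of old IEL were also mostly Cd8a+, with 1744 cells holding both UMIs against 521 in young IEL. Among Cd4+ cells without a Cd8a UMI, Foxp3 was found in 43 of 760 cells of young IEL, 5.66% (4.12 to 7.55), and in 19 of 619 of old IEL, 3.07% (1.86 to 4.75). Among Cd4+Cd8a+ cells it was found in 10 of 521 cells, 1.92% (0.924 to 3.50), and in 8 of 1744, 0.459% (0.198 to 0.902). Within cells that lacked Cd8a the intervals of both ages overlapped. The part of depth and of the Cd4+Cd8a+ cells in the lower share was not tested.

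Foxp3 UMIs were also found outside CD4+ cells. In cells that should lack the gene, those with a Trdc UMI or with Cd8b1 and no Cd4, a Foxp3 UMI was found in 15 of 1730 cells of young IEL, 0.867% (0.486 to 1.43), and in 5 of 1405 of old IEL, 0.356% (0.116 to 0.829), against 1.31% of 2220 cells of young SP and 1.13% of 3275 of old SP. The median depth of these cells was 6840, 5989, 6480 and 8376 UMIs, against 6608.5, 5748, 4999 and 3952 UMIs in the gated cells. At those shares, 21.7 of the 2506 young and 15.2 of the 4281 old IEL cells without Trdc and Cd8b1 would hold a Foxp3 UMI, beside the 76 and 51 found. For 2 or more UMIs the corresponding numbers were 4.35 and 3.05 cells, beside the 50 and 32 found.

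**Figure D1:**
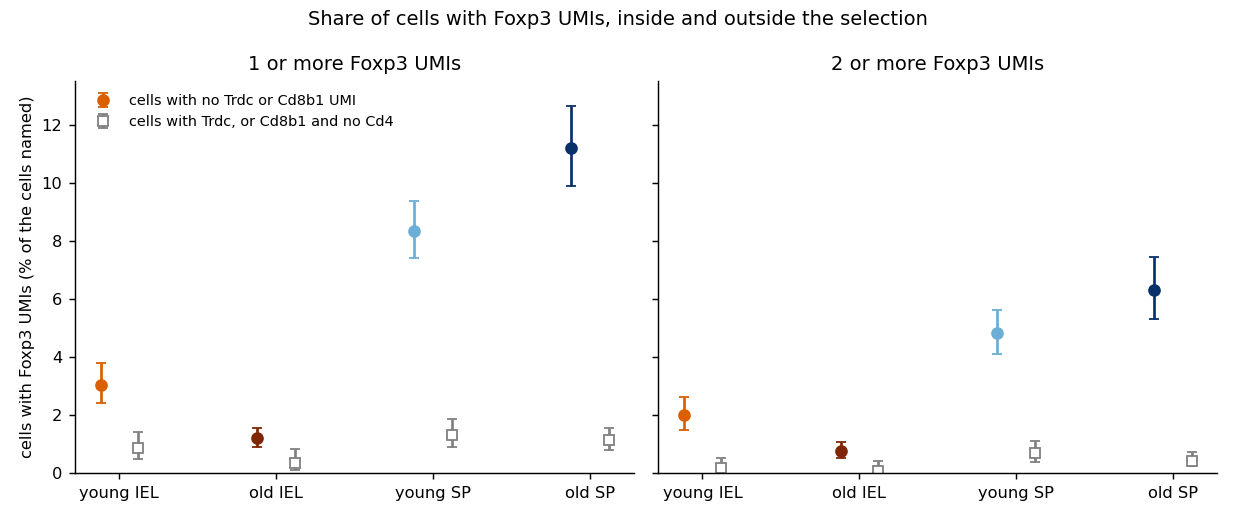
Percentage of cells with Foxp3 UMIs (vertical axis) among cells with no Trdc or Cd8b1 UMI (filled circles) and among cells that should lack Foxp3 (open squares), by library, for 1 or more UMIs (left panel) and 2 or more (right panel), with exact 95% binomial intervals as bars. For 1 or more UMIs the circles lie at 3.03% in young IEL and 1.19% in old IEL, above the squares at 0.867% and 0.356%, and at 8.33% and 11.2% in young and old SP.

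The marker genes were read by Foxp3 UMI class, which held 1228, 26, 6 and 44 young and 2336, 19, 7 and 25 old IEL cells with 0, 1, 2 and 3 or more UMIs. Ctla4 in young IEL stood at 6.46 UMIs per 10000 in cells with 0 Foxp3 UMIs, 6.39 with 1, 13.96 with 2 and 23.87 with 3 or more, and in old IEL at 5.28, 6.18, 17.92 and 25.53. Tnfrsf4, which encodes the activation receptor OX40, stood at 0.58, 1.51, 7.89 and 13.99 in young IEL and at 0.21, 0.43, 11.86 and 17.54 in old IEL. Cells just inside the gate, with 1 UMI, thus lay near those just outside it in Ctla4 at both ages, while Tnfrsf4 in young cells with 1 UMI (0.975 to 2.22) lay above the class with 0 (0.528 to 0.625). Il2ra, the other marker of the label, stood at 0.141, 0.542, 1.52 and 1.60 in young IEL and at 0.148, 0, 2.48 and 1.35 in old IEL, and Tnfrsf18, the gene of the activation receptor GITR, at 0.863, 1.51, 5.16 and 5.41 in young and at 0.623, 0.696, 6.07 and 5.96 in old IEL. In young cells both were higher with 1 UMI than with 0, with intervals apart, and in old cells the intervals of both overlapped. Cd8a, the chain of the CD8αα homodimer, ran the opposite way at 5.91, 7.23, 2.73 and 0.94 in young IEL and at 12.61, 13.66, 0.28 and 0 in old IEL. Gzma, a granzyme of cytotoxic lymphocytes, stood at 179.8, 200.9, 67.07 and 36.23 in young IEL and at 260.09, 235.04, 175.91 and 40.2 in old IEL.

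In IEL the 19 old cells with exactly 1 Foxp3 UMI thus went against the label, the 26 young ones were mixed, with 3 of these 4 markers above the class with 0 and all 4 below the classes with more, and the 50 young and 32 old cells with 2 or more fitted it. In SP the 1-UMI cells did carry the markers. Their Ctla4 level was 2.20 in young and 4.69 in old SP, Ikzf2, the gene of the regulatory T cell factor Helios, was at 3.25 and 8.34, and Tnfrsf4 was at 2.28 and 3.76, against 0.18 and 1.16 for Tnfrsf4 in SP cells with 0 Foxp3 UMIs. Results below are given for the whole gate and, where it matters, for the cells with 2 or more Foxp3 UMIs.

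**Figure D2:**
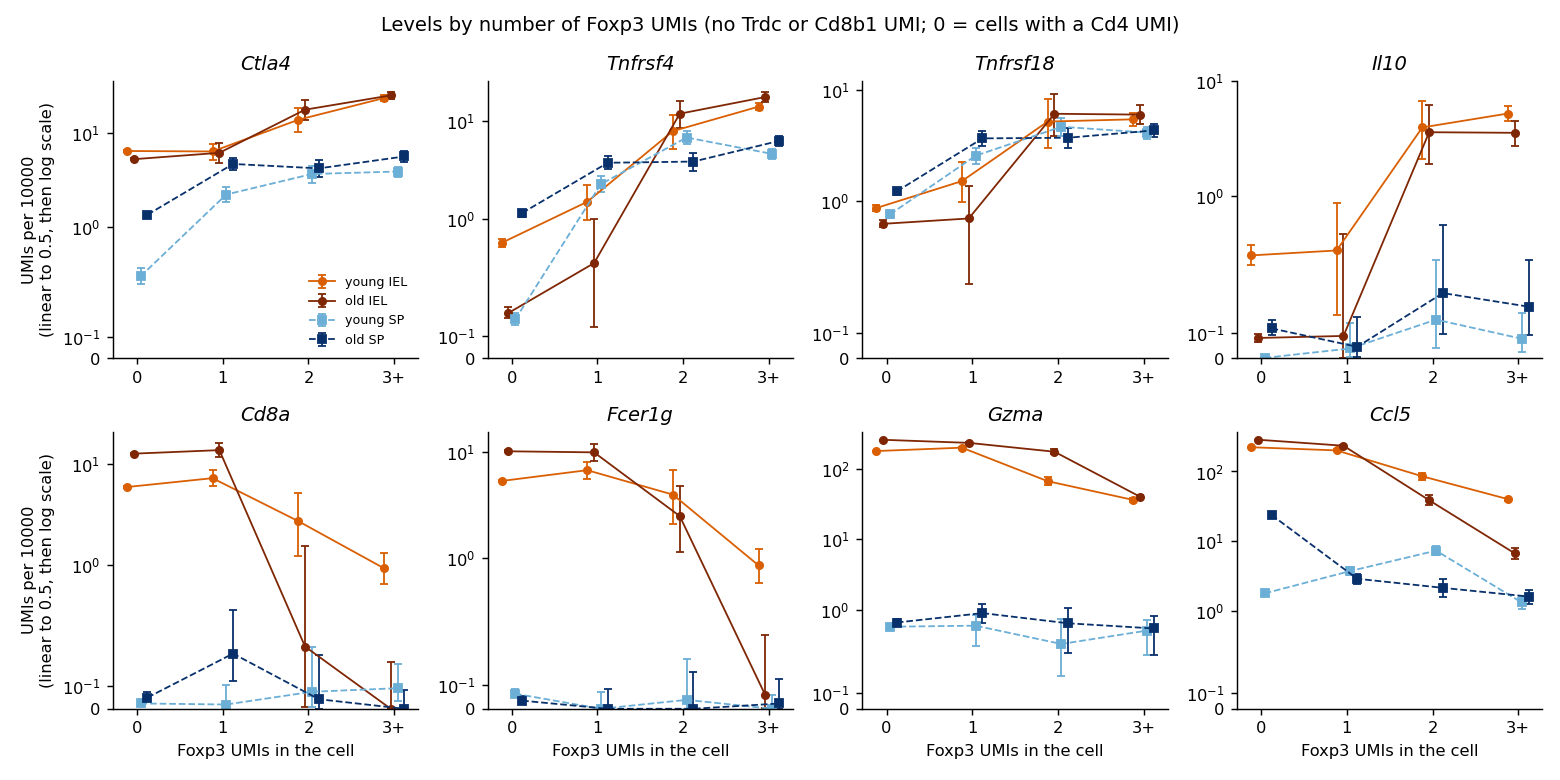
Levels of 8 genes (vertical axes, UMIs per 10000, linear up to 0.5 and logarithmic above) in cells of each library by their number of Foxp3 UMIs (horizontal axis, 0 being cells with a Cd4 UMI), with exact 95% Poisson intervals as bars. In young IEL, Ctla4 with 1 Foxp3 UMI (6.39) lies near the class with 0 (6.46) and Tnfrsf4 (1.51) between that class (0.58) and the class with 2 (7.89).

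The gated cells were T cells by their other genes. All 7 T cell markers were detected, a T cell marker was found in 76 of 76 young and 51 of 51 old IEL cells, and Cd3e, a chain of the CD3 complex, was at 16.5 and 17.1 UMIs per 10000. The 6 B cell markers summed to 4.12 in young and 5.29 in old IEL, most of it Ighm (3.14) in young and Cd74 (2.83) in old cells, with the defining marker Ms4a1 at 0. In the Foxp3-negative CD4+ IEL described below the same list summed to 0.916 in young and 1.33 in old cells, so it moved with the Foxp3 contrast, and its part in that contrast was not tested. Plasma cell markers summed to 0.909 and 1.55, nearly all Xbp1, and myeloid markers to 1.78 and 1.73, nearly all Cst3, with Lyz2 and Csf1r at 0. Of 12 epithelial markers, 1 was detected in young and 2 in old IEL, led by Epcam, and Krt8, Vil1 and Fabp1 were at 0. NK and innate lymphoid markers summed to 0.232 and 0.608, led by Il1rl1, with Ncr1 at 0.

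Against the Foxp3-negative CD4+ cells of the same library, the Foxp3 cells of IEL carried the regulatory T cell program at both ages. The comparator cells held Cd4 and no Foxp3, Cd8a, Cd8b1 or Trdc UMI, 717 in young and 600 in old IEL. Since this is the contrast that the gate itself makes, its values describe the cells and nothing is read from the shares of genes past 2-fold. Of the 21 regulatory T cell genes of the list, 19 were 2-fold or more higher in young IEL and 0 lower, with a median log2 ratio of 1.82, beside 2.47% of 6490 genes higher, 1.17% lower and a median of 0.00 over all genes at 0.2 or more UMIs per 10000. In old IEL 15 of 19 were higher and 0 lower, with a median of 1.85, beside 3.8% higher and 2.47% lower of 6844 genes and a median of 0.03. Log2 ratios are of levels plus 0.1.

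Among the receptors, Ctla4 was at 18.1 UMIs per 10000 in young Foxp3 cells (17.0 to 19.3) and 17.9 in old ones, against 8.56 and 8.63 in the Foxp3-negative cells. Il2ra was at 1.28 and 1.00 against 0.196 and 0.215. Both remaining marker genes of the label thus stood above the comparator at both ages. Tnfrsf4 was at 9.94 and 10.9 against 0.959 and 0.720, and Tnfrsf9, the gene of the costimulatory receptor 4-1BB, at 2.76 and 6.75 against 0.191 and 0.161. Tnfrsf18, the gene of GITR, was at 4.24 and 4.13 against 1.04 and 0.713. Tnfrsf1b, another receptor of this family, was at 2.98 and 2.67 against 1.40 and 1.55. These 4 receptor genes each had the higher level in Foxp3 cells at both ages. Icos, a costimulatory receptor, was at 5.45 and 6.56 against 3.74 and 3.14, and the inhibitory receptor gene Tigit at 4.88 and 6.23 against 2.20 and 1.56.

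Helios was also part of the difference, with Ikzf2 at 4.65 in young and 6.32 in old Foxp3 cells against 0.877 and 0.709 in Foxp3-negative cells. The contrast was smaller when Cd8a+ cells were kept, as all Cd4+ IEL with 0 Foxp3 UMIs held Ikzf2 at 2.24 and 2.81. IEL cells with 1 Foxp3 UMI held it at 2.59 and 3.13. Ikzf2 RNA was found in 46.1% of young and 54.9% of old cells after thinning to 2000 UMIs. Lrrc32, whose product GARP holds latent TGF-β on the cell surface, was at 0.677 in young and 0.243 in old Foxp3 cells, with a log2 ratio of 2.61 and 1.73.

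More of the suppressor effector genes were higher than lower. Of 15 in young IEL, 9 were 2-fold or more higher and 0 lower, with a median log2 ratio of 1.08, and in old IEL 10 were higher and 0 lower, with a median of 1.85. Il10 was at 3.72 in young (3.24 to 4.26) and 2.34 in old Foxp3 cells (1.85 to 2.92), against 0.609 and 0.195 in Foxp3-negative cells. Areg, the epidermal growth factor family member linked to tissue repair, was at 4.86 in young (4.30 to 5.48) and 15.0 in old Foxp3 cells (13.7 to 16.4), against 0.747 and 0.995. Interleukin-10 and amphiregulin RNA were thus both several times the comparator level, and the older cells had the lower value of the first and the higher value of the second.

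The 12 genes with the highest young ratio were Penk (log2 ratio 3.51), Fcer1g (3.46), Ccr8 (3.33), Tnfrsf9 (3.30), Tnfrsf4 (3.25), Rln3 (3.05), Klrg1 (3.00), Cd83 (2.78), Lrrc32 (2.61), Areg (2.55), Il10 (2.43) and Klrd1 (2.38). Penk encodes proenkephalin, and 44% of its UMIs in young and 42% in old Foxp3 cells came from 1 cell. Ccr8 is a chemokine receptor of tissue regulatory T cells, at 1.39 and 1.82 against 0.0486 and 0.104. Klrg1, an inhibitory receptor of terminally differentiated lymphocytes, was at 0.748 and 2.22 against 0.00584 and 0.00336. Fcer1g and Klrd1, genes of NK-type receptors, had ratios that turned with Cd8a: in gated cells without a Cd8a UMI their young log2 ratios were -0.62 and -1.05.

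The genes with the lowest young ratio were led by cytokines. Il22, which acts on epithelial cells, had 0 UMIs in both Foxp3 sets, against 3.36 in young and 1.89 in old Foxp3-negative cells, so it was at least 62.8-fold and 20.7-fold lower when 3 UMIs over the group are taken as the floor. Il17a, the signature cytokine of Th17 cells, was at 0.392 in young and 0.0304 in old Foxp3 cells against 10.97 and 9.61, and 82% of its young UMIs came from 1 cell. The chemokine gene Xcl1 (log2 ratio -3.48), Ifng (-2.08), Tnfsf8 (-2.01) and Cd40lg (-1.86), the gene of the helper ligand CD40L, followed, and the others were Tmem176b, Rrm2, Gzmk, Slamf7, Smim3 and Igfbp4, from -1.78 to -1.25. Of 11 T cell cytokines, 2 were higher and 4 lower in young IEL, with a median of -0.72, and 2 were higher and 6 lower in old IEL, with a median of -1.66, or -1.54 with genes at 0 set at their bound. Of the Th17-type genes 0 of 13 were higher and 3 lower in young IEL and 0 of 12 higher and 4 lower in old IEL.

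The cytotoxic genes of the Foxp3 cells depended on the gate. Gzma was at 86.7 in young and 123 in old cells of the whole gate, against 61.9 and 119 in Foxp3-negative cells, but at 38.8 and 63.2 in cells with 2 or more Foxp3 UMIs. Gzmb, the other main granzyme, was at 36.3 and 30.6 against 29.1 and 44.8, and at 26.9 and 14.6 with 2 or more UMIs. Ccl5, a chemokine of effector T cells, was at 90.3 and 89.8 against 107 and 169, and at 43.8 and 12.05 with 2 or more UMIs, where 29% and 48% of its UMIs came from 1 cell. With the stricter gate the granzymes and Ccl5 all lay below the Foxp3-negative level at both ages. Of the CD8αα and NK-type genes of the IEL compartment, by that gate, 2 of 13 were 2-fold higher and 6 lower in young IEL (median -0.80), beside 3.59% higher and 2.25% lower over all genes, and 1 of 11 was higher and 8 lower in old IEL (median -2.48), beside 6.35% and 7.87%.

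**Figure D3:**
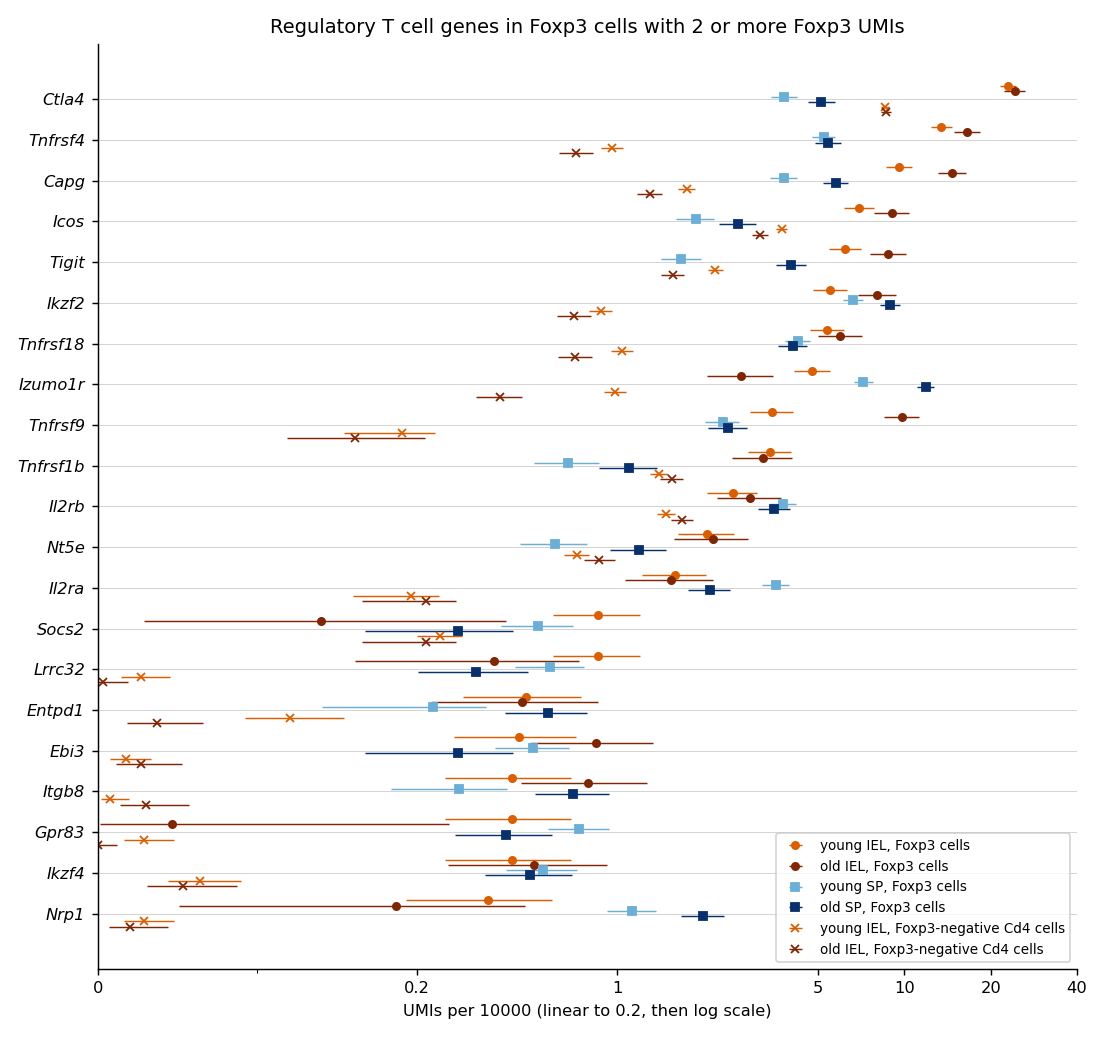
Levels of regulatory T cell genes (horizontal axis, UMIs per 10000, linear up to 0.2 and logarithmic above) in cells with 2 or more Foxp3 UMIs of IEL (circles) and SP (squares) and in Foxp3-negative CD4+ IEL (crosses), with exact 95% Poisson intervals as bars. Ctla4 lies at 23.0 and 24.2 in young and old IEL, against 8.56 and 8.63 in Foxp3-negative IEL and 3.83 and 5.15 in SP.

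The comparison of IEL with SP asked which part of the program belongs to the site. Foxp3 itself, used by the gate in both tissues, was at 4.83 and 5.59 UMIs per 10000 in young and old IEL and at 4.93 and 5.002 in young and old SP. Of all genes, 6.21% of 6680 were 2-fold or more higher and 3.02% lower in young IEL than in young SP, and 7.39% of 7054 higher and 5.54% lower in old IEL than in old SP. Of the 21 regulatory T cell genes, 7 were higher and 2 lower in young IEL (median log2 ratio 0.42, beside 0.04 over all genes) and 6 higher and 3 lower in old IEL (median -0.12, beside 0.02). The core list thus split between the sites instead of moving one way.

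Ctla4, Icos and Tnfrsf4 were on the IEL side of that split. Ctla4 was at 18.1 and 17.9 in young and old IEL against 3.24 and 4.97 in SP. Icos was at 5.45 and 6.56 against 1.47 and 2.54, and Tnfrsf4 at 9.94 and 10.9 against 4.17 and 4.77. Tnfrsf18 was at 4.24 and 4.13 against 3.64 and 3.92, with overlapping intervals, and with 2 or more Foxp3 UMIs at 5.39 and 5.98 against 4.26 and 4.09, with the young intervals still overlapping and the old ones (4.99 to 7.11 and 3.63 to 4.60) apart. On the SP side, Izumo1r, the gene of folate receptor 4, was at 3.72 and 1.85 in IEL and 6.88 and 12.01 in SP, Nrp1, the gene of neuropilin-1, at 0.321 and 0.152 against 0.939 and 1.95, and Il2ra at 1.28 and 1.00 against 2.95 and 1.74. Of the 19 old IEL cells with 1 Foxp3 UMI, 0 held Il2ra. Among cells with 2 or more Foxp3 UMIs it was found, unthinned, in 53.1% of old IEL and 49.2% of old SP cells. After thinning these old shares were 12.5% (3.51 to 29.0) and 29.1% (21.4 to 37.9), with overlapping intervals. Ikzf2 was the lower one in IEL at both ages, at 4.65 and 6.32 against 5.40 and 8.69, though the young intervals (4.10 to 5.25 and 5.03 to 5.80) overlapped, as did the shares of thinned cells with a UMI, 46.1% and 47.8%. In cells with 2 or more Foxp3 UMIs Ikzf2 was at 5.51 and 8.03 against 6.63 and 8.92, and the intervals overlapped at both ages.

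Gut homing and tissue residence genes were mostly on the IEL side. Of 18 in the young pair, 12 were 2-fold or more higher and 0 lower (median 1.88), and of 19 in the old pair 13 were higher and 1 lower (median 2.37). Ccr9, the receptor for the small intestinal chemokine CCL25, was at 3.62 and 3.77 in IEL against 0.0552 and 0.0530 in SP, and was found in 39.5% and 33.3% of IEL cells against 0.784% and 0.885% of SP cells after thinning. Itgae, whose product CD103 binds E-cadherin of the epithelium, was at 3.83 and 6.26 against 0.331 and 0.636. Cxcr6, a residence-associated chemokine receptor, was at 1.59 and 1.85 against 0.0966 and 0.0265. Itgb7, the β chain shared by both gut integrins, was not part of this, at 5.54 and 4.38 in IEL against 4.73 and 4.91 in SP. Ccr9 and Itgae were also high in Foxp3-negative CD4+ IEL, at 2.97 and 2.56 and at 2.81 and 6.24, so that Foxp3 cells and Foxp3-negative cells of the epithelium both carried them.

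Genes of naive and recirculating T cells were mostly on the SP side, with 0 of 15 higher and 10 lower in the young pair (median -1.13) and 0 higher and 11 lower in the old pair (median -1.89). Klf2, a factor that keeps T cells in circulation, was at 3.78 and 1.61 in IEL against 8.39 and 6.26 in SP, and Id3, a factor of resting regulatory T cells that is outside the list, at 0.196 and 0 against 2.22 and 1.997. Ccr7 differed less in young cells, at 2.28 in IEL and 2.10 in SP, than in old ones, at 0.243 and 1.08.

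The highest ratios were those of effector genes. Among the 12 highest young ratios were those of Gzma (log2 ratio 7.14), Gzmb (6.57), Ccl4 (4.84), Ccl5 (4.74), Fcer1g (4.74), Areg (4.71), Ccr9 (4.58), Il10 (4.44), Cd8a (4.21), Dapk2 (3.63) and Gm45716 (3.59). Il10 was at 3.72 in young and 2.34 in old IEL against 0.0759 and 0.150 in SP. Areg was at 4.86 and 15.0 against 0.0897 and 0.513. With 2 or more Foxp3 UMIs the IEL values of Il10 were 5.11 and 3.55, against 0.0975 and 0.220 in SP, so that the contrast held in the cells that carry the marker genes. By that gate Ccl4, Cd8a and Dapk2 were no longer among the 12 highest. Ccl4 was at 1.01 in young and 0.374 in old IEL cells with 2 or more Foxp3 UMIs, against 4.74 and 6.69 in the whole gate, Fcer1g at 1.11 and 0.467 against 2.76 and 3.74, and Cd8a at 1.09 and 0.0467 against 2.90 and 4.80. Areg, at 6.63 and 22.6, and Ccr9, at 4.35 and 4.90, were not lower by that gate. Gzmb (6.18) and Gzma (6.08) still had the highest young log2 ratios by that gate, at levels that lay below the Foxp3-negative IEL. The lowest young ratios were those of Id3 (-2.97), Gm2682 (-2.69), Ddit4 (-2.66), Il6ra (-2.62), Dapl1 (-2.60), Ly6c1 (-2.43), Rarg (-2.41), Itgb1 (-2.36), AI467606 (-2.22), Aff3 (-2.08), Znrf3 (-2.05) and Treml2 (-2.04).

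Most genes of regulatory T cells in non-lymphoid tissues were higher in IEL too, 11 of 15 by 2-fold or more in the young pair (median 1.91) and 12 of 17 in the old pair (median 1.71), with 0 lower in both. Besides Areg and Il10 these included Id2, a factor of tissue-resident lymphocytes, at 4.79 and 6.503 against 0.676 and 0.610, and Prdm1, the gene of Blimp-1, at 0.606 and 0.699 against 0.110 and 0.292. Batf, a factor of tissue regulatory T cell formation, did not follow the list at both ages, at 1.73 and 2.01 in IEL against 1.17 and 2.77 in SP. Against Foxp3-negative IEL, 6 of 15 genes of this list were 2-fold or more higher in young (median 0.83) and 8 of 17 in old cells (median 0.88), with 0 lower in both.

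Other lists also differed between the sites. All 7 cytotoxic genes measured in the young pair were 2-fold or more higher in IEL (median 2.65), as were all 9 in the old pair (median 2.42). These counts are of the whole gate, in which IEL cells with 1 Foxp3 UMI held Gzma at 200.9 in young and 235.04 in old cells. With 2 or more Foxp3 UMIs Gzma and Gzmb were still higher in IEL, by log2 ratios of 6.08 and 6.18 in the young pair. In the old pair their ratios by that gate were 6.56 and 5.52. Of the Th17-type genes 7 of 9 were higher in the young pair (median 1.80, or 1.91 with genes at 0 set at their bound) and 5 of 8 in the old pair (median 1.60); Maf was at 2.89 and 2.67 in IEL against 0.697 and 1.87 in SP. Interferon response genes were 0 of 20 higher and 4 lower in the young pair (median -0.35), and 0 of 21 higher and 6 lower in the old pair (median -0.53).

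**Figure D4:**
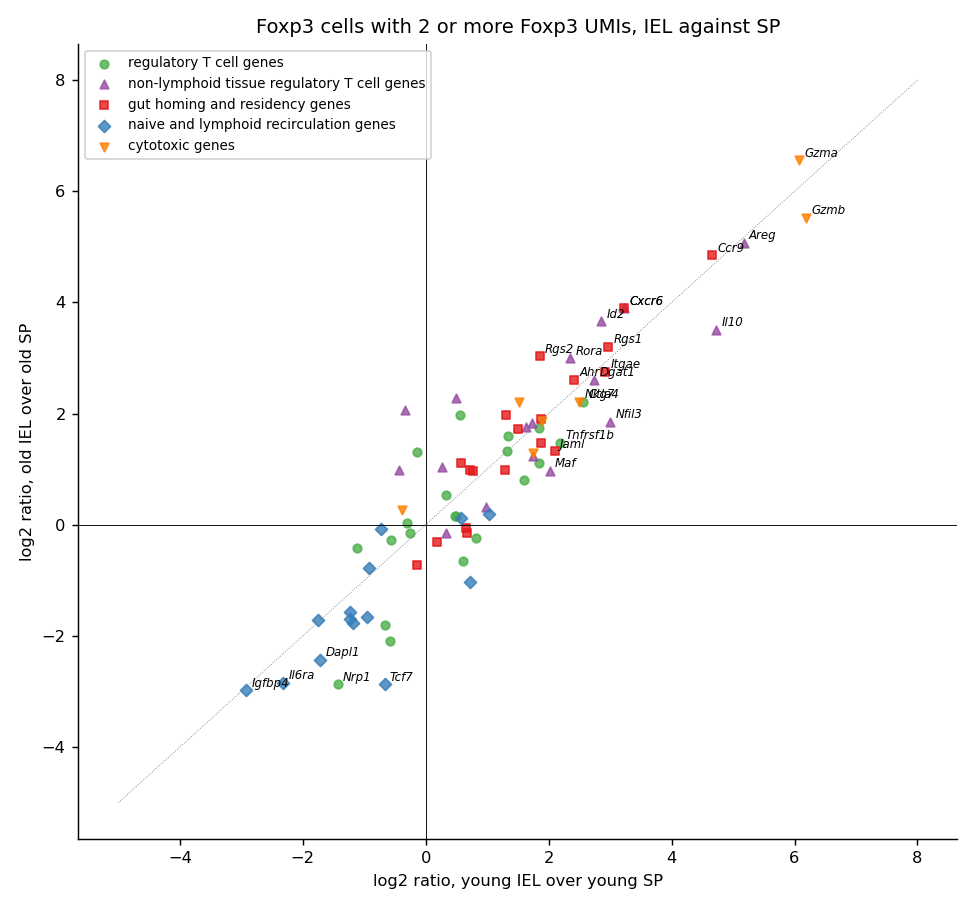
Log2 ratio of levels plus 0.1 in cells with 2 or more Foxp3 UMIs of IEL against SP, young pair on the horizontal and old pair on the vertical axis; each point is a gene of 1 of 5 lists, set by colour and shape, and the dotted line marks equal ratios. Ccr9 (young log2 ratio 4.66) lies far on the IEL side and Il6ra (-2.32) far on the SP side, with some genes of both lists near 0.

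Cell states were read as the share of cells with a UMI after each gated cell was thinned to 2000 UMIs, which kept all IEL cells, 255 of 260 young SP cells and 226 of 231 old SP cells. Il10 was found in 26 of 76 young IEL cells, 34.2%, and in 9 of 51 old IEL cells, 17.6%. It was found in 1.57% and 3.10% of young and old SP cells and in 4.32% and 2.08% of Foxp3-negative IEL. With 2 or more Foxp3 UMIs the shares were 44.0% of young and 28.1% of old IEL cells. Maf, a factor that drives Il10, was found in 38.0% of young and 62.5% of old IEL cells of the stricter gate, against 14.0% and 29.9% in SP. In unthinned counts of those cells, Maf was held by 26 of the 30 young cells with an Il10 UMI and 10 of the 20 without, and by 14 of the 18 old cells with Il10 and 8 of the 14 without. The cells were not matched for depth in these counts, and the part of depth in them was not tested.

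Factors of known regulatory T cell states were found together as well as apart. Gata3, a factor of the type-2 and repair state, was found in 14.5% of young and 17.6% of old IEL cells, against 19.2% and 12.8% of SP cells. Of the 50 young IEL cells with 2 or more Foxp3 UMIs, 21 held both Ikzf2 and Gata3, 20 Ikzf2 alone, 3 Gata3 alone and 6 neither in unthinned counts, and of the 32 old ones the numbers were 15, 11, 1 and 5. Of the young cells with an Il10 UMI, 23 also held Ikzf2 and 7 did not, and of the old ones 15 did and 3 did not. Il10 RNA was thus found mostly in cells that also held Helios RNA, as most cells of this gate did, and a cell with neither gene cannot be told from one whose RNA was missed.

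Cd8a, the chain of the CD8αα homodimer, was found in 13 of 76 young IEL cells, 17.1% (9.43 to 27.5). In old IEL it was found in 13 of 51 cells, 25.5% (14.3 to 39.6), against 1.18% and 2.21% of young and old SP cells. The gate did not require Cd4, and in raw counts 53 of 76 young and 27 of 51 old IEL cells held it. Cd4 and Cd8a together were held by 10 young and 8 old gated IEL cells, so the Cd8a shares are not of CD4+ cells alone. With 2 or more Foxp3 UMIs Cd8a was found in 5 of 50 young, 10.0%, and 1 of 32 old IEL cells, 3.13%, while 0 of 127 old SP cells held it. In raw counts, 9 of 26 young and 13 of 19 old IEL cells with 1 Foxp3 UMI held Cd8a.

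**Figure D5:**
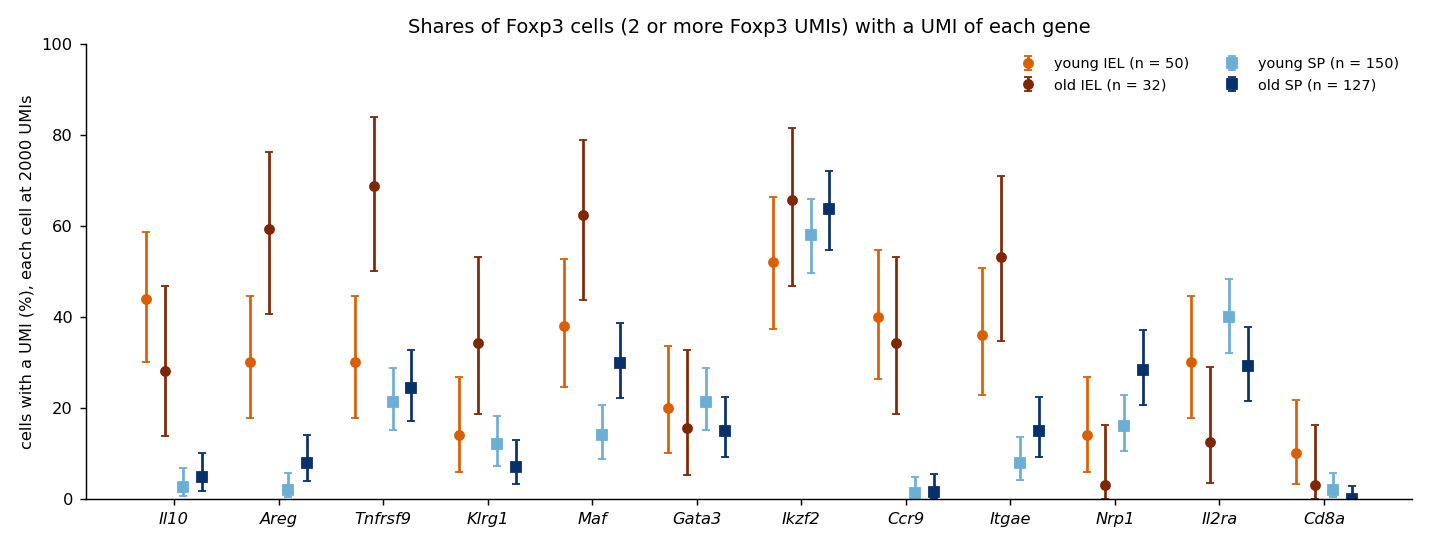
Percentage of cells with 2 or more Foxp3 UMIs that held a UMI of each gene after thinning each cell to 2000 UMIs, by library, with exact 95% binomial intervals as bars. Il10 is found in 44.0% of young and 28.1% of old IEL cells against 2.67% and 4.72% in SP, and Areg in 30.0% and 59.4% of IEL cells against 2% and 7.87%.

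The age comparison rested on 76 young and 51 old IEL cells, 50 and 32 of them with 2 or more Foxp3 UMIs. Between ages 3.07% of 6737 genes were 2-fold or more higher and 1.97% lower in old IEL Foxp3 cells, and 1.47% of 6687 higher and 0.254% lower in old SP Foxp3 cells. The IEL sets are the smaller ones, and counting error spreads the ratios of small sets more. The regulatory T cell list had a median near that of all genes in IEL, with 1 of 21 higher, 3 lower and a median log2 ratio of -0.04 (0.06 over all genes), while in SP 3 were higher, 0 lower and the median was 0.51 (0.07 over all genes). Ctla4 differed by a log2 ratio of -0.02 in IEL with overlapping intervals, and by 0.60 in SP with intervals apart.

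Single regulatory and repair genes did differ between the ages in IEL. Areg was at 4.86 in young and 15.0 in old cells, found in 21.1% and 41.2% of cells after thinning, and with 2 or more Foxp3 UMIs it was at 6.63 and 22.6 and in 30.0% and 59.4% of cells. In SP, Areg was at 0.0897 and 0.513, so that the old level was the higher one in both tissues, by log2 ratios of 1.61 in IEL and 1.69 in SP. Tnfrsf9 was at 2.76 (2.34 to 3.23) and 6.75 (5.89 to 7.69), found in 21.1% and 49.0% of cells, though 29% of the old UMIs came from 1 cell. Klrg1 was at 0.748 and 2.22. The amphiregulin, 4-1BB and KLRG1 genes were thus all at higher levels in old IEL cells, by both gates and with intervals of the levels apart. Not every activation gene followed, with Tnfrsf4 at 9.94 in young and 10.9 in old IEL cells of the whole gate. The shares of cells with Klrg1, 10.5% (4.66 to 19.7) in young and 25.5% (14.3 to 39.6) in old IEL, overlapped. Il10 ran the other way at 3.72 and 2.34, but with 2 or more Foxp3 UMIs its intervals overlapped.

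Cell cycle genes depended on the gate. In the whole gate 2 of 17 were 2-fold or more higher in old than in young IEL and 0 lower (median 0.11), beside 3.07% higher and 1.97% lower over all genes. With 2 or more Foxp3 UMIs 0 of 14 were higher and 5 lower (median -0.78), where 4.69% of all genes were higher and 4.87% lower. Mki67, a marker of dividing cells, was at 2.96 in old IEL cells with 1 Foxp3 UMI, with 47% of its UMIs from 1 cell, and at 0.187 in those with 2 or more. NF-κB genes, which act downstream of OX40, GITR and 4-1BB, had 0 of 19 past 2-fold between the ages in the whole gate, with a median of 0.20. Beside the shares of 3.07% and 1.97% over all genes (median 0.06), a count of 0 of 19 does not set this list apart.

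The 8 highest genes in old against young IEL were Hspa1b (log2 ratio 2.21), Atf3 (2.17), Irs2 (2.01), Pdcd1 (2.0), Cd72 (1.89), Tmx4 (1.88), Cd74 (1.82) and Tent5a (1.75). By the gate of 2 or more Foxp3 UMIs, Atf3, Cd72, Cd74 and Tent5a were again among the 8 highest, and Tff1, Epas1, Cd81 and Inf2 stood in place of Hspa1b, Irs2, Pdcd1 and Tmx4. Hspa1b was then at 0.0506 in young and 0.514 in old IEL cells, Irs2 at 0.0506 and 0.420, Pdcd1 at 0.304 and 1.49 and Tmx4 at 0.126 and 0.841. Of Hspa1b, a heat shock gene, 50% of the old UMIs came from 1 cell, and of the stress factor Atf3 86%. Pdcd1, the gene of the inhibitory receptor PD-1, was at 0.214 in young and 1.15 in old IEL cells and at 0.497 and 2.02 in SP cells. Cd74, the MHC class II invariant chain, was at 0.730 and 2.83 in IEL and at 0.711 and 3.54 in SP, and the B cell marker Ms4a1 was at 0 in both IEL sets. Cd72 was at 0.303 and 1.40 in IEL with a log2 ratio of 0.04 in SP.

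Among the 8 lowest were Plac8 (-3.02), Ccr7 (-2.79), Igfbp4 (-2.62), Rgcc (-2.0), Rln3 (-1.97), Socs2 (-1.92) and Tcf7 (-1.86), with Ccr7, Igfbp4 and Tcf7 from the naive list. Of the 29 Igfbp4 UMIs of young IEL, 26 were in cells with 1 Foxp3 UMI, and with 2 or more Foxp3 UMIs Igfbp4 had 3 UMIs in young and 0 in old cells, so that no age difference was detectable by that gate. Plac8, Ccr7 and Rgcc were among the 8 lowest by that gate as well. Of 13 naive and recirculation genes in IEL, 0 were 2-fold higher and 9 lower, with a median of -1.43, and by the stricter gate 0 of 12 were higher and 6 lower, with a median of -0.98, beside 4.69% higher, 4.87% lower and a median of 0.02 over all genes. Plac8 had 40 UMIs in young and 0 in old IEL cells, at least 7.82-fold lower against a floor of 3 UMIs over the group. Tcf7, a factor of naive and memory T cells, was at 1.48 and 0.334 and was found in 17.1% and 5.88% of thinned cells, and Ccr7, the receptor that guides T cells into lymph nodes, was found in 18.4% and 3.92%. In SP the naive list had 0 genes past 2-fold in either direction, with a median of -0.46. The lower level of naive genes with age in Foxp3 cells was thus larger in IEL than in SP in these pools, though the difference between tissues was not tested.

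Repeated TCRβ chains were found among the Foxp3 cells of old IEL and not of young IEL. A TRB chain was recovered in 68 young and 42 old IEL cells of the gate, 234 young SP cells and 209 old SP cells. The 68 young IEL cells held 68 clonotypes, defined by V gene and CDR3 bases, so that 0% shared one, which allows up to 5.28%. The 42 old IEL cells held 34 clonotypes, and 11 cells, 26.2% (13.9 to 42.0), shared one with another gated cell. Of these 11 cells, 6 were in clonotypes of 100 or more cells of the library. In SP the share was 0.855% of young and 8.61% of old cells. With 2 or more Foxp3 UMIs, 5 of 28 old IEL cells, 17.9% (6.06 to 36.9), remained, which were the 5 cells of clonotype 1. Of the 46 young IEL cells of that gate 0% shared one, which allows up to 7.71%, so the intervals of both ages overlapped.

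The clonotypes printed above differed in kind. All 5 library cells of clonotype 1 passed the gate, with 2, 2, 3, 4 and 8 Foxp3 UMIs, and all 5 carried the same TRA chain, while their Ctla4 level was 19.9, Ikzf2 7.88, Il10 6.75, Gzma 183 and Cd8a 0. Clonotype 2 had 3 gated cells among 747 cells of the library, 0.402%, with 1, 1 and 2 Foxp3 UMIs, and over all its cells a Ctla4 level of 0.456, Ikzf2 7.22, Cd8a 22.6 and Gzma 446. Clonotype 2 was thus a large expansion of Foxp3-negative cells in which the share with a Foxp3 UMI was near the 0.356% found in old IEL cells that should lack the gene.

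Across the gate, 13 young and 14 old IEL cells shared their TRB clonotype with a cell of the same library outside it, and with 2 or more Foxp3 UMIs 3 and 1 did. TRBV2 was used by 6 of 42 old Foxp3 cells, 14.3% (5.43 to 28.5), against 47.0% of 421 old Foxp3-negative cells, and TRBV12-2+TRBV13-2 by 11 of 42, 26.2%, 5 of them clonotype 1, against 4.51%. TRBV13-1, the segment of clonotype 2, was used by 8 of 42, 19.0% (8.60 to 34.1), against 2.85%. TRBV5 was used by 5 of 42, 11.9% (3.98 to 25.6), against 15.7%, a value within its interval. These shares count cells and not clonotypes. Of the 2336 Cd4 cells of old IEL with 0 Foxp3 UMIs, Cd8a+ cells included, 1098 were in clonotypes of 100 or more cells. The part of such expansions in the TRBV2 share of the Foxp3-negative cells was not tested.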

How the data were processed

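Gene expression and TCR sequences of single T cells were measured by 10x 5′ sequencing in 4 libraries, 1 pool of mice per tissue and age. The pools held 3 mice per age by the methods, whereas a figure legend of the study gives another number of young mice. The authors aligned reads to mm10, counted UMIs with Cell Ranger 7.0.1 and deposited unnormalized counts per gene and cell with TCR contigs. The 3 further records of the labels, which carry no group, were used in no comparison.

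Cells were gated on raw counts. UMIs were summed over the cells of a set and divided by the summed total, per 10000, and ratios are log2 of levels plus 0.1 over genes with 0.2 or more UMIs per 10000 in either set. Shares of cells were read after thinning each cell to 2000 UMIs. Intervals (scipy 1.17.1) are exact and cover counting error only, and cells of 1 pool are not replicates, so nothing was tested. Pipeline steps were tested on simulated data. Doublets were scored with Scrublet (scanpy 1.11.5), which marked 0% of young IEL and young SP, 1.60% of old IEL and 0.0181% of old SP and so did not work in 3 of the 4 libraries; it marked 0 gated cells, and 7 young and 2 old gated IEL cells held 2 or more TRB chains. Clonotypes are the V gene and CDR3 bases of the TRB chain with most UMIs.

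Named genes are the 12 highest and 12 lowest ratios of the young pair at 0.5 or more UMIs per 10000 with intervals apart and the same sign in the old pair, the 8 highest and 8 lowest between ages in IEL, and genes of 24 lists (303 genes, 1 of them not in the tables). Receptor segments and gate genes were left out, except that Cd8a was kept where it did not gate the compared sets. The members and lists were chosen with earlier results of these data known. Alternatives changed the Foxp3 gate, the comparator, thinning, pseudocount, minimum level, scaling and the clonotype definition. Genes were placed by the annotation of GRCm38. Some genes and 1 receptor sequence are not reported here.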

Additional observations from a re-analysis of the deposited data

Results flagged for a closer look

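In 5 genes the old-to-young difference of Foxp3 cells ran in opposite directions in IEL and SP, with counting intervals apart in both tissues. They were 5 of 226 list and named genes at 0.5 or more UMIs per 10000 in IEL of either age, 2.21%, chosen with results of these data known, and over all 3750 genes at that level other than TCR segments 10 met the same criterion, 0.267%. With 1 pool per group, the difference between the tissues was not tested. Izumo1r, the gene of folate receptor 4, had a log2 ratio of -0.97 in IEL (3.72 in young and 1.85 in old cells) and 0.79 in SP (6.88 and 12.01). Klrg1 had 1.45 in IEL and -0.79 in SP. Nr4a1, an early gene of TCR signalling, had 0.73 in IEL (3.88 and 6.503) and -0.91 in SP (1.28 and 0.636). Cish, a gene induced by cytokine signalling, had 0.77 in IEL (1.73 and 3.01) and -0.81 in SP (1.32 and 0.707). S100a4, a calcium-binding protein gene of effector T cells, had -0.80 in IEL (3.08 and 1.73) and 0.54 in SP (2.48 and 3.64). In the cells with 2 or more Foxp3 UMIs the old and young IEL intervals of S100a4 (1.98 to 3.40 and 2.42 to 3.52) overlapped.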

How the results depend on the processing

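No paired analysis was possible because each group holds 1 pool. Over all alternatives, 174 values of the main results stayed within the counting interval or within 1.5 times of the reported one and 40 moved. Removal of the cells called doublets took out 0 gated cells, so that values under that setting could hardly move. With 2 or more Foxp3 UMIs the library shares were 1.15% and 0.551% in young and old IEL and 2.65% and 2.35% in young and old SP, and those of Cd4 or Foxp3 cells 3.83%, 1.34%, 7.63% and 10.0%. By the gate of at least 1 Foxp3 UMI and at least 1 Cd4 UMI, the library shares were 1.22%, 0.465%, 2.49% and 2.58%. The shares of Cd4 or Foxp3 cells were then 4.06%, 1.13%, 7.17% and 11.1%, and no young SP cell (0%) shared a clonotype. Without Cd8a cells, old IEL gave 0.637% and 1.55%. Thinned to 2000 UMIs before gating, young IEL gave 1.06%, young SP 3.37% and old SP 3.02% of the library, and young SP 15.5% of Cd4 or Foxp3 cells. Thinned to 1000, the library shares were 0.759%, 0.379%, 1.91% and 1.72%, and young IEL gave 7.80% and young SP 16.0% of Cd4 or Foxp3 cells. The share with Cd8a was 7.89% of young IEL after thinning to 1000, and with 2 or more Foxp3 UMIs 3.13% of old IEL and 0% of old SP. The share with Il10 was 19.7% of young IEL after thinning to 1000 and, unthinned, 46.1% of young and 37.3% of old IEL. With a pseudocount of 0.5 the median log2 ratio of the regulatory T cell list was 0.87 in young and 0.99 in old IEL, and that of the gut homing list 1.07 and 1.36. With 2 or more Foxp3 UMIs the gut homing median of the old pair was 1.73. Among named genes, 4 ratios reversed, all in young IEL against Foxp3-negative cells: Fcer1g to -0.62 and Klrd1 to -1.05 without Cd8a cells in the gate, and to -0.92 and -0.85 with Cd8a not gated in the comparator. Old IEL rests on 51 cells, in which 3 UMIs are a level of 0.0912, against 0.0534 in young IEL and 0.0207 and 0.0265 in SP.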

Other observations

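The old Foxp3-negative CD4+ IEL used as comparator held the plasma cell gene Jchain at 7.12 UMIs per 10000, whereas the plasma cell markers of the old Foxp3 cells of IEL summed to 1.55, led by Xbp1. Epcam, an adhesion molecule that IEL can also express, was at 0.641 in young Foxp3 cells of IEL and at 0.0486 in young Foxp3-negative CD4+ IEL, with 11 of the 12 epithelial markers at 0 in the Foxp3 cells. The Epcam contrast was not particular to IEL. In SP it was at 0.269 in young and 0.398 in old Foxp3 cells, against 0.0405 and 0.0314 in Foxp3-negative CD4+ cells. Lag3, an inhibitory receptor gene, was at 2.24 in young and 2.40 in old Foxp3 cells of IEL and at 0.173 and 1.24 in SP. Nt5e, the gene of the adenosine-forming enzyme CD73, was at 1.64 and 1.70 in IEL and at 0.580 and 1.31 in SP. Il1rl1, the gene of the interleukin-33 receptor ST2, was at 0.125 in young and 0.486 in old IEL, with intervals of 0.0501 to 0.257 and 0.278 to 0.790.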
